A study of Mus musculus with 9 samples.

Results

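The S100 proteins are small calcium sensors built from a pair of EF-hand motifs, and most of them work as dimers that change shape on binding calcium and then grip a partner protein. The 8 genes described here are S100a1, S100a4, S100a6, S100a10, S100a11, S100a13, S100a16 and S100b, that is, S100 genes other than S100a8 and S100a9, whose products form the main calcium-binding complex of neutrophils. They were taken by gene symbol from a table of 20405 named genes with 1 probe set each, and all 8 were found. Another 9 S100 genes on the arrays, S100a8 and S100a9 among them, served for comparison.

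The cells came from the aorta-gonad-mesonephros region (AGM) of C57Bl6 mouse embryos at E11.5, where blood stem and progenitor cells bud from the wall of the aorta. Cells were sorted on CD144 (VE-cadherin, a junction protein of endothelium) and CD45 (the surface phosphatase shared by most blood cells) into endothelial cells (EC, CD144+CD45-), stem and progenitor cells (HSPC, CD144+CD45+) and blood cells (HC, CD144-CD45+). No mutant or treated group was part of the design, and each population was measured on 3 arrays. Whether the 3 samples of each population trace back to separate embryo pools is not said in the labels, and p-values therefore speak only of the scatter among these samples, part or all of which may be technical.

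Values are log2 expression after robust multi-array averaging (RMA), and a difference of 1 is a 2-fold change. Differences were tested with limma over all named genes, and a gene is called where its Benjamini-Hochberg adjusted p is under 0.05. The level below which expression was taken as background, 4.64, is the value that 95% of 1286 smell and pheromone receptor genes stayed under, genes with no known use in these cells. Cdh5, which encodes CD144, stood at 11.84, 11.56 and 11.68 on the EC arrays, 11.11, 9.76 and 10.54 on the HSPC arrays and 6.36, 5.93 and 5.09 on the HC arrays. Ptprc, which encodes CD45, had group means of 4.42 (EC), 8.90 (HSPC) and 9.95 (HC). EC replicate 1 was above the other EC arrays in 3 of 6 granulocyte genes by more than 1, with S100a8 at 7.05 against 4.32 and 4.78, S100a9 at 6.53 against 3.88 and 4.85, and Mpo at 6.43 against 4.98 and 5.15. The other granulocyte genes did not show this, with Camp at 5.49 against 5.34 and 5.39. Ltf (4.08 and 4.21 on the other EC arrays) and Ngp (4.26 and 4.47) were lowest on that array. All EC values of Ltf and Ngp were under the background level, so their order among these arrays cannot show a rise or its absence. In sorted populations measured in bulk, fewer cells of a type and less RNA per cell cannot be told apart.

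Each population pair separated a different subset of the 8 genes. Between HC and EC, 3 of the 8 were higher in HC (S100a1, S100a4 and S100a6) and 1 was lower (S100a16), where 14.8% and 12.6% of all genes were called higher and lower. Between HSPC and EC, the same 3 were higher in HSPC and 2 were lower (S100a16 and S100a13), against 8.55% and 7.94% of all genes. Between HSPC and HC, 1 was higher in HSPC (S100a16) and 2 were lower (S100a1 and S100a13), against 7.01% and 7.61%. S100a10, S100a11 and S100b were called in none of these comparisons (limma). At an unadjusted p under 0.05 S100b alone of those passed, between HSPC and HC. The median difference over the 8 genes was 0.19 between HC and EC, 0.09 between HSPC and EC and -0.13 between HSPC and HC, beside 0.05, 0.01 and -0.03 over all genes. The comparisons share arrays and are not independent of one another.

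**Figure D1:**
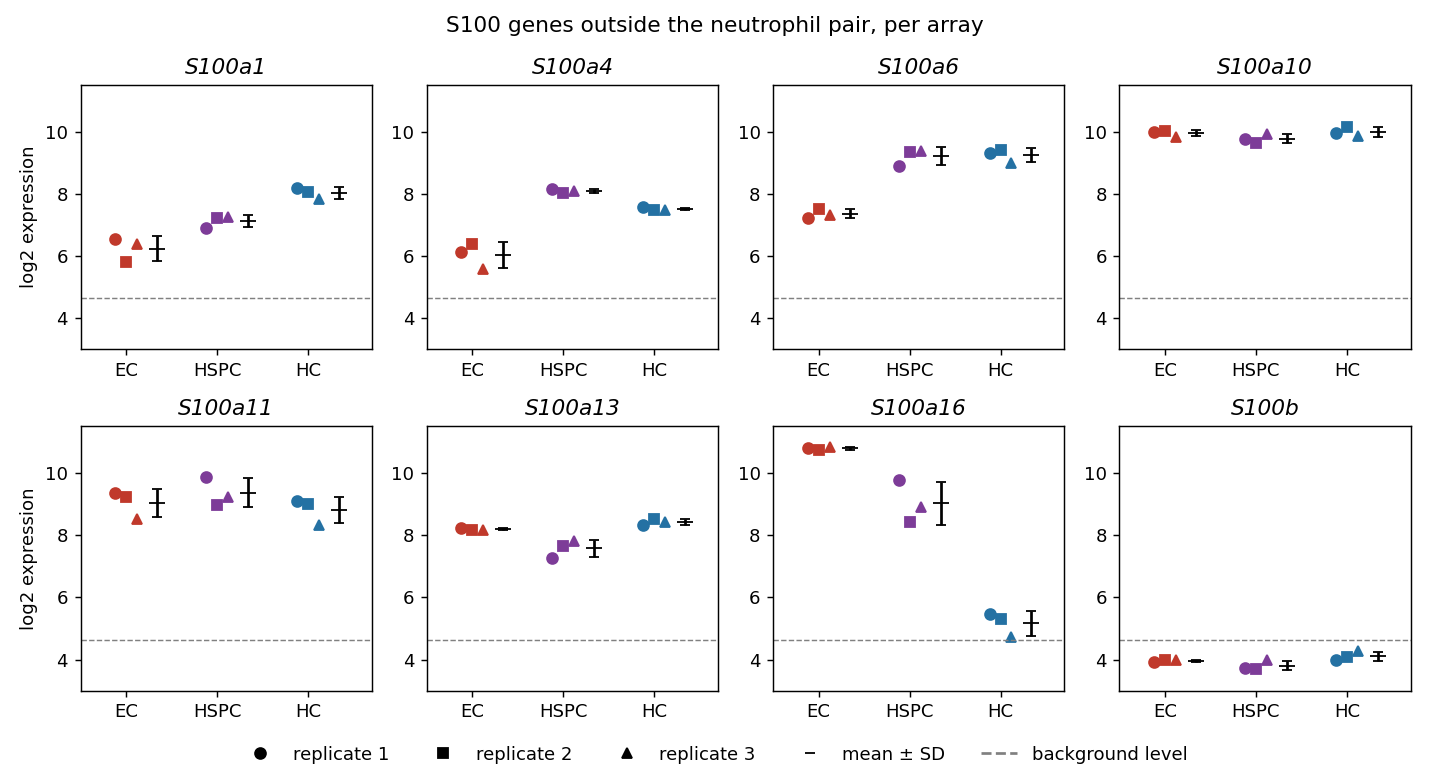
Log2 expression (vertical axis) of the 8 S100 genes on each array, by sorted population (horizontal axis); symbols mark the replicate, the bars the mean ± SD of 3 arrays, and the dashed line the background level of 4.64. S100a16 falls from EC to HC, S100a4 is highest in HSPC, S100a13 is lowest in HSPC, and all S100b values lie under the dashed line.

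S100a16 was the gene of the group with the endothelial pattern. It encodes a broadly expressed S100 protein that binds calcium weakly. Its level was 10.80, 10.74 and 10.83 on the EC arrays, 9.76, 8.42 and 8.89 on the HSPC arrays, and 5.46, 5.30 and 4.72 on the HC arrays. No array of 1 population overlapped with another population, and even the lowest HC array stayed just above the background level. The difference was -5.63 ± 0.31 between HC and EC (log2, SE; adjusted p = 3.39e-06), -1.77 ± 0.31 between HSPC and EC (adjusted p = 0.00435) and 3.86 ± 0.31 for HSPC over HC (adjusted p = 0.000143).

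HSPC replicates 1, 2 and 3 had covered 18.3%, 42.0% and 33.8% of the way from the EC mean of S100a16 down to its HC mean. The spread between HSPC arrays was wide, with an SD of 0.68 against 0.04 in EC. The order of the HSPC arrays, replicate 1 highest and replicate 2 lowest, was also that of Cdh5. It was likewise the order of 6 endothelial markers, whose mean level was 9.82, 8.17 and 9.06 on these arrays, and the reverse of 6 macrophage markers at 8.24, 9.99 and 9.27. The part of these markers in the S100a16 values was not tested. HSPC lay 1.05 ± 0.27 above the midpoint of EC and HC and missed the threshold (adjusted p = 0.0546). The difference was 0.68 without HSPC replicate 1 (adjusted p = 0.0964) and 1.35 without HSPC replicate 2 (adjusted p = 0.0216). The adjusted p ran from 0.0216 to 0.123 over 15 alternatives, of which 4 passed.

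The genes most like S100a16 over the 9 arrays were Cd93, a glycoprotein of endothelium and some myeloid cells (Pearson r = 0.999), Heg1, a partner of the endothelial junction (r = 0.999), and the actin-binding calponin Cnn3 (r = 0.998). These correlations are descriptions that mostly reflect the steps between 3 populations, and the arrays share those groups. All 3 genes kept a mean well above background in HC, at 7.55, 6.20 and 8.02, while S100a16 had dropped to 5.16. The RefSeq table gives S100a16 a pair of start sites. The 250 bases upstream of the first one are shown because this gene has the widest range of the group (chr3:90537004-90537253, GRCm38.p6, + strand). They held none of the 8 motifs searched (named with the motif counts further on), hence no capitals.

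S100a16: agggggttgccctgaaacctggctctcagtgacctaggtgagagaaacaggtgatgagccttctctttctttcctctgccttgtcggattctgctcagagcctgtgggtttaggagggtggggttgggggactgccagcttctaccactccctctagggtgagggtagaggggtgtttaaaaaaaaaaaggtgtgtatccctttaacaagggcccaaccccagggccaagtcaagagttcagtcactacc

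The opposite pattern, low in EC and high in both CD45+ populations, was that of S100a6. S100a6 encodes calcyclin, which binds the ubiquitin-ligase adaptor Cacybp and several annexins. EC arrays stood at 7.23, 7.50 and 7.33, HSPC arrays at 8.88, 9.35 and 9.39, and HC arrays at 9.32, 9.42 and 8.99. Both CD45+ populations were thus clear of EC, and they overlapped with each other. S100a6 was 1.85 ± 0.16 higher in HSPC than in EC (adjusted p = 0.000102) and 1.89 ± 0.16 higher in HC than in EC (adjusted p = 2.83e-05). Between HSPC and HC the difference was -0.04, with a 95% interval of -0.40 to 0.33 and an adjusted p of 0.916. The HSPC mean lay 0.91 ± 0.14 above the midpoint of EC and HC (adjusted p = 0.00625). The nearest profiles over the 9 arrays were those of Satb1, a chromatin organiser of blood cells (r = 0.994), Cmtm7 (r = 0.991) and the histone variant gene Macroh2a1 (r = 0.988).

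S100a4, also known as metastasin or Fsp1, binds non-muscle myosin and is made by fibroblasts and many white blood cells. Its arrays read 6.14, 6.38 and 5.58 in EC, 8.16, 8.04 and 8.10 in HSPC, and 7.57, 7.49 and 7.49 in HC. HSPC was the highest population and its arrays lay above every HC array. S100a4 was 2.07 ± 0.17 higher in HSPC than in EC (adjusted p = 8.42e-05) and 1.48 ± 0.17 higher in HC than in EC (adjusted p = 0.000189). The difference between HSPC and HC, 0.59 ± 0.17, missed the threshold with an adjusted p of 0.0539. Over 16 alternatives that adjusted p ran from 0.00389, without EC replicate 3, to 0.143, and 5 of the 16 passed.

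Against the midpoint of EC and HC, S100a4 was 1.33 ± 0.15 higher in HSPC (adjusted p = 0.00131). Across all genes, 3.79% were called above that midpoint and 2.77% below it, and of the 8 S100 genes 2 were above it (S100a4 and S100a6) and 1 below (S100a13). The profiles closest to S100a4 over the 9 arrays were Lyar, a nucleolar protein (r = 0.991), Nfe2, a transcription factor of megakaryocytes and red cells (r = 0.989), and Myb, which definitive blood progenitors require (r = 0.984). Myb had means of 5.49, 9.92 and 8.37 in EC, HSPC and HC. Because S100a4 also marks fibroblasts, 11 markers of mesenchyme and mural cells were read beside it. Their mean level was 5.03 to 5.21 on the HSPC arrays, 5.21 to 5.56 on the EC arrays and 5.24 to 5.58 on the HC arrays. Against EC, 0 of 11 were called higher in HSPC and 2 lower, beside 8.55% and 7.94% of all genes. Against HC, 0 were called higher in HSPC and 1 lower, beside 7.01% and 7.61% of all genes. Granulocyte markers, 6 in number, averaged 5.97 to 6.39 in HSPC, against 9.88 to 10.41 in HC and 4.48 to 5.62 in EC. They were not uniform: Mpo, with an HSPC mean of 10.44, was called 4.92 higher in HSPC than in EC (adjusted p = 5.57e-05, limma). The other 5 were not called between HSPC and EC. Macrophage markers, 6 in number, averaged 8.24 to 9.99 in HSPC, 10.66 to 10.78 in HC and 4.82 to 5.23 in EC. The part of any of these cell types in the S100a4 values was not tested.

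The upstream sequences of S100a4 (chr3:90603520-90603769, GRCm38.p6, + strand) and S100a6 (chr3:90612644-90612893, GRCm38.p6, + strand) are shown because these neighbours on chromosome 3 were both higher in HSPC and HC than in EC. Each is the 250 bases before the start site in the RefSeq table. Capitals mark the TATA box letters TATAAA in S100a4, which begin 31 bases before the start, and the RUNX letters TGTGGT on either strand in S100a6, which occur at 217, 145 and 79 bases before the start.

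S100a4: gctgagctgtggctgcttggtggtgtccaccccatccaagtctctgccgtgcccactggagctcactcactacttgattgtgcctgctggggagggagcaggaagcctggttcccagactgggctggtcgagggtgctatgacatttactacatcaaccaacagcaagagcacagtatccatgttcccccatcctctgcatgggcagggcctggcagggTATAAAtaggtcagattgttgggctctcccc

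S100a6: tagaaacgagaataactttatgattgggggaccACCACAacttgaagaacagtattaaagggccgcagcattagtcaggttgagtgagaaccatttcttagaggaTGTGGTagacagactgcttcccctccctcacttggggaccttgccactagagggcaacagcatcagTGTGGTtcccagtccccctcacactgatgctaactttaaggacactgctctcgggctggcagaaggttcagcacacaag

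These matches describe letters, not binding. Of the 8 genes, 7 had a window in the table and S100a16 had a pair of them, giving 8 windows to set against all 32851 of the table, each searched on both strands. TATAAA stood in 12.4% of all windows and, among the 8, in that of S100a4. The RUNX letters stood in 14% of all windows and, among the 8, in S100a6 and the second S100a16 window. The GC box, spelled GGGCGG, was in 32.7% of all windows, and here in S100a11 and the second S100a16 window. The AP-1 motif, TGANTCA, was in 6.75% of all windows and in the same pair of windows here. S100a11 also held the GATA motif, AGATAA, which 9.99% of all windows hold. The E-box, CACGTG, was in S100a11 too and in 6.02% of all windows. The PU.1 motif (GAGGAAGT, 2.44% of all windows) and the ETS motif (CCGGAAGT, 2.88%), which have their last letters in common, were in 0 of the 8 windows.

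S100a1 was higher at each step from EC through HSPC to HC. It encodes the calcium sensor best known from heart and skeletal muscle, where it acts on the ryanodine receptor and the calcium pump of the sarcoplasmic reticulum. EC arrays stood at 6.56, 5.80 and 6.38, HSPC arrays at 6.91, 7.21 and 7.27, and HC arrays at 8.20, 8.06 and 7.83. No arrays overlapped between populations, and HSPC lay between the others. S100a1 was 1.79 ± 0.20 higher in HC than in EC (adjusted p = 0.000129) and 0.88 ± 0.20 higher in HSPC than in EC (adjusted p = 0.0136). It was 0.90 lower in HSPC than in HC (log2 difference -0.90 ± 0.20, adjusted p = 0.0152).

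The HSPC mean of S100a1 stood at 49.5% of the way from EC to HC, with arrays at 37%, 54.1% and 57.4%, and its difference from the midpoint was -0.01 with a 95% interval of -0.39 to 0.38 (adjusted p = 0.988). Both HSPC calls were near the threshold: the one against EC was lost without HSPC replicate 3 (adjusted p = 0.0546), and the one against HC without HSPC replicate 1 (0.0553), HC replicate 1 (0.0588) or HC replicate 2 (0.0518). On the same scale S100a6 stood at 98%, S100a4 at 140%, beyond HC, and S100a16 at 31.4%. The profiles most like S100a1 over the 9 arrays were Cers6, a ceramide synthase (r = 0.987), Fam13b (r = 0.985) and Fnip1, a folliculin partner (r = 0.983). Leukocyte markers, 6 in number, moved the same way as S100a1, with mean levels of 9.63 to 10.55 in HSPC and 11.11 to 11.18 in HC, above 5.81 to 6.08 in EC. Their part in the S100a1, S100a4 and S100a6 differences was not tested.

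S100a13 alone of the group was called lower in HSPC than in EC and in HC. S100a10 and S100b also had their lowest mean in HSPC, and were not called. The S100a13 product helps release proteins that lack a signal peptide, such as the growth factor Fgf1 and the cytokine Il1a. EC arrays stood at 8.22, 8.17 and 8.17, HSPC arrays at 7.27, 7.64 and 7.81, and HC arrays at 8.32, 8.51 and 8.41. Every HSPC array was below every array of the other populations. S100a13 was lower in HSPC by -0.61 ± 0.13 against EC (adjusted p = 0.0104), by -0.84 ± 0.13 against HC (adjusted p = 0.00309) and by -0.73 ± 0.11 against the midpoint of EC and HC (adjusted p = 0.0062). Between HC and EC the difference was 0.22, with a 95% interval of -0.07 to 0.51 and an adjusted p of 0.257. The calls against EC, HC and the midpoint were made under all the alternatives run, with adjusted p up to 0.0395, 0.0186 and 0.0196.

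S100a13 and S100a1 lie head to head on chromosome 3, on opposite strands, and the 104 bases between their start sites in the RefSeq table are shown because the genes on either side had different profiles (chr3:90514331-90514434, GRCm38.p6, + strand, on which S100a13 is read; S100a1 is read from the other strand). None of the 8 motifs was found in these letters, hence no capitals.

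S100a1 and S100a13: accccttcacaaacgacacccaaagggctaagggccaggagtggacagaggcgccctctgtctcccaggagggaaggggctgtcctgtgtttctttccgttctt

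In the same samples, S100a1 was called higher in HSPC than in EC and S100a13 was called lower. Against HC, both were called lower in HSPC, S100a1 by -0.90 (adjusted p = 0.0152, limma) and S100a13 by -0.84 (adjusted p = 0.00309, limma).

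**Figure D2:**
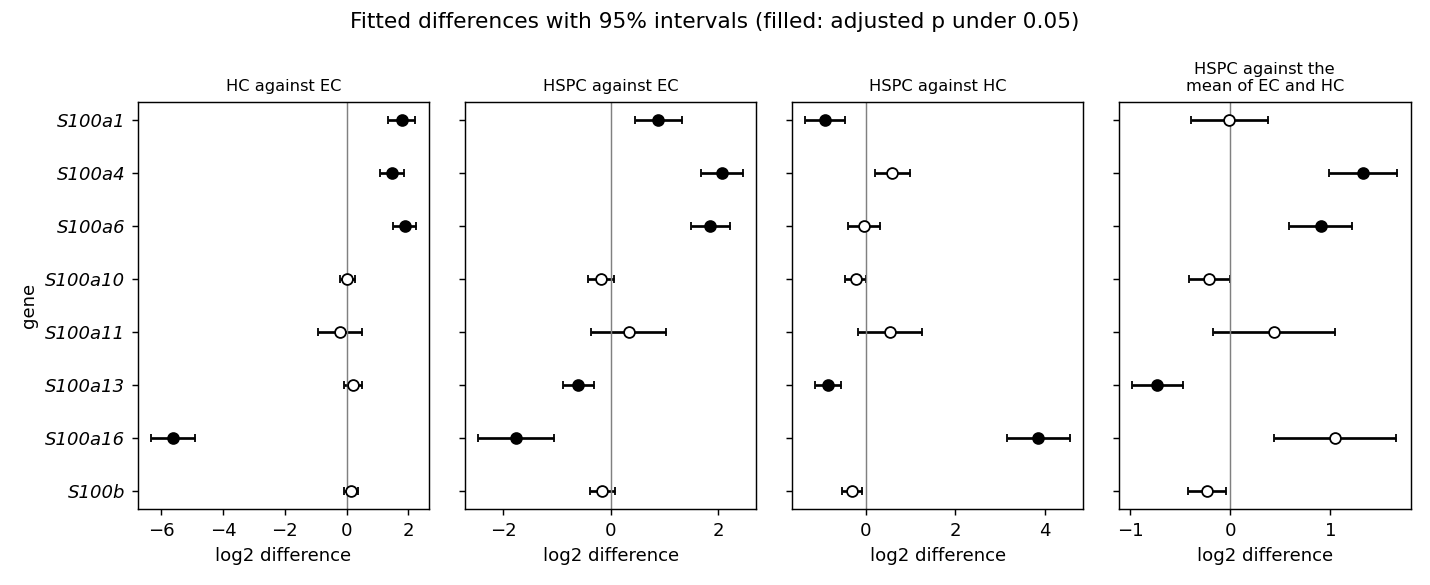
Fitted log2 differences (horizontal axis, scaled separately in each panel) of the 8 S100 genes (vertical axis) with 95% intervals, for HC against EC, HSPC against EC, HSPC against HC and HSPC against the mean of EC and HC; filled points had an adjusted p under 0.05. S100a16 has the widest differences, S100a13 is the gene called lower in HSPC in each HSPC panel, and S100a10, S100a11 and S100b have open points throughout.

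S100a10 and S100a11, the annexin-binding members, were well above background in all 3 populations and were called in none of the comparisons. S100a10, or p11, no longer binds calcium and holds a pair of annexin A2 molecules together at the membrane. It stood at 10, 10.03 and 9.84 in EC, 9.75, 9.63 and 9.92 in HSPC, and 9.97, 10.14 and 9.86 in HC, and all populations overlapped. The 95% intervals of its differences were -0.20 to 0.27 between HC and EC, -0.43 to 0.05 between HSPC and EC, and -0.46 to 0.01 between HSPC and HC. S100a11 binds annexin A1. It stood at 9.34, 9.22 and 8.51 in EC, 9.88, 8.96 and 9.23 in HSPC, and 9.11, 9.01 and 8.32 in HC, with overlapping populations and SDs of 0.45, 0.47 and 0.43. Its intervals were wider, at -0.92 to 0.49 between HC and EC, -0.37 to 1.03 between HSPC and EC, and -0.16 to 1.25 between HSPC and HC, so that a difference of 1 between HSPC and HC lies inside the last of them. A processed copy on chromosome 12, S100a11-ps, has its own probe set, with group means of 5.03, 4.93 and 4.75 in EC, HSPC and HC, and how far S100a11 and this copy share signal is uncertain.

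S100b, the S100 protein of glia and some neural crest derivatives and a ligand of the receptor RAGE, was at background everywhere. Its arrays read 3.92, 3.97 and 3.97 in EC, 3.73, 3.69 and 3.97 in HSPC, and 3.97, 4.07 and 4.26 in HC, all under 4.64, and no fold is given. Its HSPC minus HC difference of -0.30 had an adjusted p of 0.0772. Of 8 neural crest and glia markers 5 were measured, with a mean level of 4.65 to 4.72 in HSPC, 4.68 to 4.80 in EC and 4.75 to 4.90 in HC. Of these 5, 0 were called in any comparison, and Erbb3 and Tfap2b were at background in every population. Among all genes, 14.8% were called higher and 12.6% lower in HC against EC. The shares were 8.55% and 7.94% in HSPC against EC, 7.01% and 7.61% against HC, and 3.79% and 2.77% against the midpoint. So few markers could well give 0 calls at such shares. S100b is also the only one of the 8 genes outside chromosome 3, on chromosome 10.

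Along chromosome 3 the S100 genes follow each other in the order S100a1, S100a13, S100a14, S100a16, S100a3, S100a2, S100a4, S100a5, S100a6, S100a7a, S100a8 and S100a9, with no other protein-coding gene of the RefSeq table between them. S100a11 and S100a10 lie side by side further along the chromosome. Genes at background lay among genes with clear signal, without a strict alternation. S100a14 lies between S100a13 and S100a16, and its means were 4.12, 4.29 and 4.20 in EC, HSPC and HC. S100a3 and S100a2, between S100a16 and S100a4, had means of 3.46 to 3.52 and 4.23 to 4.49. S100a5, between S100a4 and S100a6, had means of 4.09 to 4.25.

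Neighbouring genes above background did not share a pattern throughout. S100a16 fell by 5.63 on the log2 scale from EC to HC, and S100a4, the nearest expressed S100 gene on its far side, differed by 1.48 in the other direction. S100a4 and S100a6 were higher in HSPC and HC than in EC, while S100a8 and S100a9, which follow after S100a7a, were called higher in HC (6.73 and 6.43 above EC) and missed the threshold in HSPC against EC, at 1.32 (adjusted p = 0.236) for S100a8 and 0.99 (adjusted p = 0.465) for S100a9. Of the 9 other S100 genes, S100a8 and S100a9 were the 2 called in HC against EC, both higher. Among all genes, 14.8% were called higher and 12.6% lower in that comparison. All the rest were at background in the 3 populations except S100g, with means of 4.82 to 5.08. On EC replicate 1, the array with the highest S100a8 of the EC group, S100a1 (6.56), S100a11 (9.34) and S100a13 (8.22) were also the highest of the EC arrays, S100a4 (6.14), S100a10 and S100a16 (10.80) were in the middle, and S100a6 (7.23) and S100b (3.92) were the lowest.

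**Figure D3:**
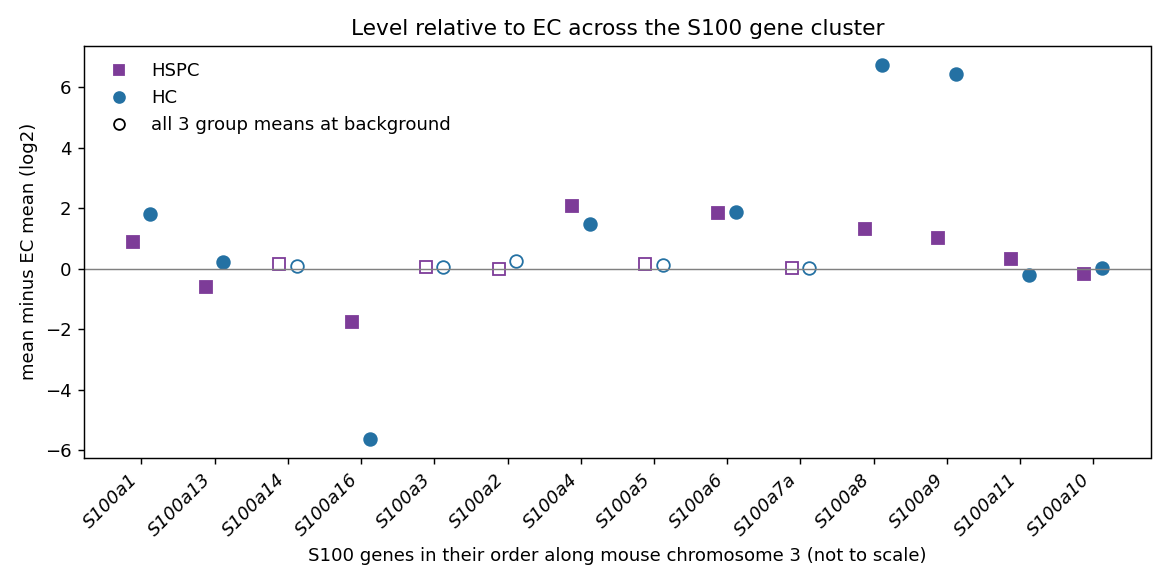
Group mean minus the EC mean (vertical axis, log2) of HSPC (squares) and HC (circles) for 14 S100 genes in their order along mouse chromosome 3 (horizontal axis, not to scale); open symbols mark genes whose 3 group means were all at background. S100a16 has the lowest HC value at -5.63, S100a8 and S100a9 the highest, and S100a4 and S100a6 lie above 0 in both populations.

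The partners of these proteins were followed through a list of 30 binding partners and targets, of which 28 are analysed here. Between HC and EC 9 of the 28 were called higher and 5 lower, where 14.8% and 12.6% of all genes were. Between HSPC and EC 4 were higher and 5 lower, against 8.55% and 7.94% of all genes. Between HSPC and HC 2 were higher and 8 lower, against 7.01% and 7.61%. The median difference of the 28 was 0.10, 0.02 and -0.09 in these comparisons, beside 0.05, 0.01 and -0.03 over all genes. These counts include small called differences of Ryr2 and Fgf1, whose group means were all at background and for which no fold is given. Il1a is counted as well, with EC alone at background.

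The annexin partners differed between populations in which S100a10 and S100a11 were not called. Anxa2, which S100a10 binds, stood at 9.91, 9.92 and 9.82 in EC, 8.71, 8.70 and 8.52 in HSPC, and 8.45, 8.51 and 8.55 in HC. EC arrays were all above those of the CD45+ populations, and Anxa2 was lower than in EC by -1.24 ± 0.07 in HSPC (adjusted p = 1.32e-05) and -1.38 ± 0.07 in HC (adjusted p = 2.98e-06). Anxa1, which S100a11 binds, went the other way, from 5.32, 5.33 and 5.09 in EC through 5.88, 5.73 and 6.31 in HSPC to 8.95, 9.06 and 8.60 in HC. It was 3.63 ± 0.17 higher in HC than in EC (adjusted p = 1.62e-06) and 0.73 ± 0.17 higher in HSPC than in EC (adjusted p = 0.0166). HSPC lay 1.08 below the midpoint for this gene (-1.08 ± 0.15, adjusted p = 0.00327). Dlc1, whose product also binds S100a10, differed from EC by -1.83 in HSPC (adjusted p = 6.81e-05) and -2.32 in HC (adjusted p = 6.17e-06). Ahnak, a large membrane scaffold held by S100a10 and annexin A2, was lower in HSPC than in HC by -0.54 (adjusted p = 0.0413). Hltf, a chromatin remodeller listed as an S100a10 partner, went the other way, 0.45 ± 0.11 higher in HSPC than in EC (adjusted p = 0.0239) and 0.88 ± 0.11 higher in HC than in EC (adjusted p = 0.000332). Hltf was also lower in HSPC than in HC by -0.43 (adjusted p = 0.035).

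Among the S100a4 partners, Myh10 and Ppfibp1 were lower in HSPC and HC than in EC, and Mdm2 was higher in HC than in EC. Myh10, a non-muscle myosin heavy chain, stood at 9.33, 9.43 and 9.38 in EC, 8.30, 7.58 and 7.94 in HSPC, and 7.45, 7.22 and 6.99 in HC. Its difference from EC was -1.44 ± 0.18 in HSPC (adjusted p = 0.000662) and -2.16 ± 0.18 in HC (adjusted p = 2.21e-05). Ppfibp1, a liprin that binds S100a4, differed from EC by -1.52 ± 0.22 in HSPC (adjusted p = 0.00155) and -1.80 ± 0.22 in HC (adjusted p = 0.000245). Mdm2, a ubiquitin ligase, was 0.44 ± 0.12 higher in HC than in EC (adjusted p = 0.0194), and its HSPC minus EC difference of 0.38 missed the threshold (adjusted p = 0.057). Myh9, the other non-muscle myosin of the list, had means of 9.51, 9.22 and 9.42 and was not called in any comparison.

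For S100a6, Cacybp had means of 10.59, 10.90 and 10.81 in EC, HSPC and HC, and was not called between HSPC and HC (adjusted p = 0.596). Its differences from EC missed the threshold, at 0.31 in HSPC (adjusted p = 0.0524) and 0.22 in HC (adjusted p = 0.123), though the arrays did not overlap. Anxa11 also missed it, at 0.34 in HSPC (adjusted p = 0.0681) and 0.27 in HC (adjusted p = 0.101). Sugt1 leaned the other way, at -0.33 (adjusted p = 0.11) and -0.28 (adjusted p = 0.139), and was not called. Anxa6 was lower in both CD45+ populations than in EC, by -1.31 ± 0.07 in HSPC (adjusted p = 5.93e-06) and -0.90 ± 0.07 in HC (adjusted p = 1.51e-05). For S100a13, Il1a was under background in EC, at 3.07, 3.13 and 3.49, and stood at 4.99, 6.27 and 6.35 in HSPC and 5.10, 5.70 and 5.40 in HC. With EC set to the background level, Il1a was at least 1.23 higher in HSPC (adjusted p of the fit 0.000848) and at least 0.75 higher in HC (adjusted p of the fit 0.0011) on the log2 scale. Fgf1 and Syt1, the other export partners of S100a13, were at background in all 3 populations. The Fgf1 means were 3.78, 3.70 and 4.01. Of the muscle partners of S100a1, the calcium pump gene Atp2a2 had means of 9.84, 9.78 and 9.96, while Ryr2 and Pln were at background. Among the partners listed for S100b, the kinase gene Stk38 was 0.59 higher in HC than in EC (adjusted p = 0.00822), the actin-capping gene Capza2 0.95 higher (adjusted p = 0.000126) and the scaffold gene Iqgap1 0.48 higher (adjusted p = 0.00409). Tlr4, a receptor for secreted S100 proteins, was 1.96 higher in HC than in EC (adjusted p = 0.00031). Of these, Capza2 (-0.69, adjusted p = 0.00287), Iqgap1 (-0.37, adjusted p = 0.0281) and Tlr4 (-1.14, adjusted p = 0.0156) were lower in HSPC than in HC. Ager, which encodes RAGE, had means of 6.10, 5.97 and 6.15 and was not called.

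**Figure D4:**
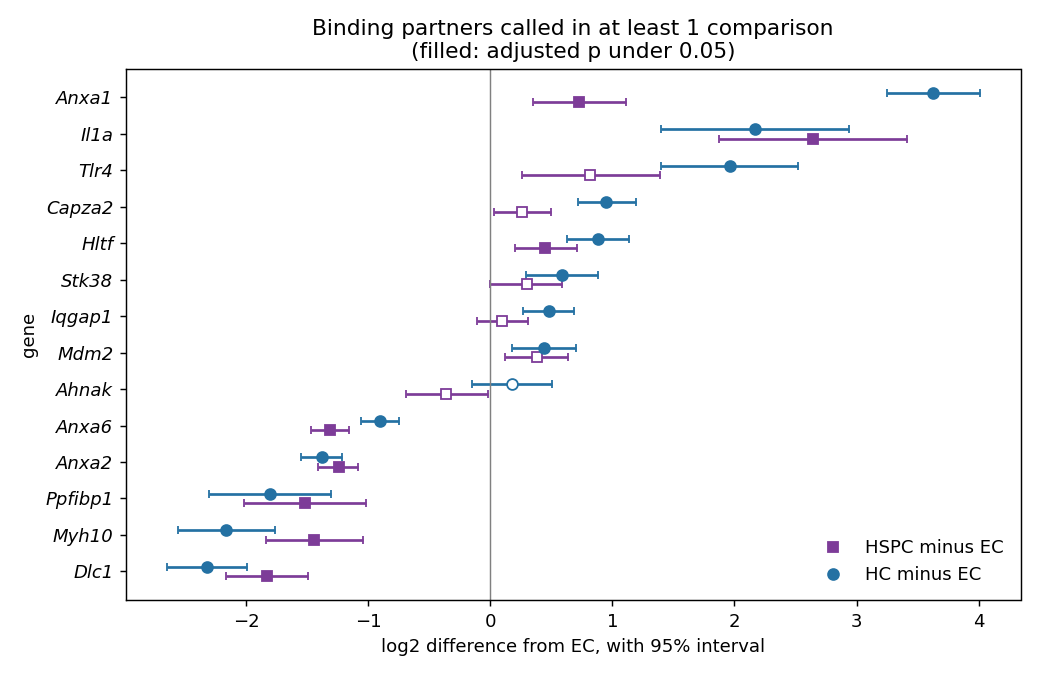
Fitted log2 difference from EC (horizontal axis, with 95% intervals) of HSPC (squares) and HC (circles) for the 14 partner genes called in at least 1 of the 3 comparisons between populations and above background in at least 1 population (vertical axis); filled symbols had an adjusted p under 0.05. Anxa1 lies highest in HC at 3.63, and Anxa2, Anxa6, Ppfibp1, Myh10 and Dlc1 lie below EC in both CD45+ populations. The EC level of Il1a was at background, so its plotted differences depend on a value with no measured level.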

How the data were processed

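Total RNA from sorted cells was amplified from nanogram amounts and hybridised to Affymetrix mouse gene arrays, per the labels' protocols, which name both a first and a second generation of the array without saying which sample went on which. The deposited values are log2 expression, 1 value per probe set and array; the submitters' processing notes name RMA and Partek. Amplification and RMA can compress differences of dim genes, and a change of total RNA per cell is not visible. The genome build behind the probe sets is not given in the sources used here. Of 21115 probe sets, 20405 have 1 gene symbol, 0 have several and 710 have none; the last were left out.

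From the deposited log2 values, differences were fitted with limma 3.58.1 (R 4.3.3) (a linear model of all 9 arrays with 1 mean per group and empirical Bayes variances on 6 residual and 2.75 prior degrees of freedom, two-sided), with Benjamini-Hochberg adjustment over 20405 genes. With 3 arrays a group, exact permutation could not reach a p under 0.1. The fit was tested on simulated data. The genes described and the lists of partners and markers were chosen with earlier results of these data known. Named were all 8 genes, partners called in at least 1 comparison, and the 3 genes with the highest Pearson r for each gene whose group means span at least 1; uncalled partners were named after their values were seen. Promoter sequences, gene order and chromosomes come from RefSeq tables of GRCm38.p6. Array medians lay between 5.41 and 5.51, and arrays of 1 population correlated at 0.985 to 0.994. Precision is limited by the 3 arrays per population. Alternatives were repeated quantile normalization, median centring, a filter on dim probe sets, the trend and robust options, the replicate block, the unnamed probe sets, fits of 6 arrays, other background percentiles, and leaving out each array.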

Additional observations from a re-analysis of the deposited data

How the results depend on the processing

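Each of the 4 comparisons was refitted under up to 16 alternatives. Of 500 refitted differences of single S100 genes, 472 kept their direction and their side of the threshold, 11 newly passed it, 4 no longer passed it (all S100a1, given with that gene), and 13 changed sign, every one of these between values that were not called. The sign changes were S100a6 between HSPC and HC (0.04 after repeated quantile normalization, and -0.16 to 0.13 leaving out 1 array), S100a10 between HC and EC (-0.02 after quantile normalization, -0.01 after median centring and -0.04 to 0.10 leaving out 1 array), S100a1 against the midpoint (-0.12 to 0.10) and S100a11 between HC and EC (-0.47 to 0.03). S100a4 between HSPC and HC passed after quantile normalization (0.0438), without dim probe sets (0.0369), in the fit of 6 arrays (0.00506) and without EC replicate 2 (0.0261) or 3 (0.00389). S100a16 against the midpoint passed without dim probe sets (0.0349), with the trend and robust options (0.0477) and with the replicate block (0.0468). S100b between HSPC and HC, at background, passed after median centring (0.0497) and without HSPC replicate 3 (0.0392). The cause of these changes was not tested. Same-numbered arrays had deviations that correlated over 0.1 in 1 of 9 pairs, and 4 of 9 arrays correlated best with their own number. The labels do not say whether the numbers pair the samples, and such correlations over 3 arrays a group cannot decide it. With the replicate block 5 of the 8 genes were called between HSPC and EC, 3 between HSPC and HC, 4 between HC and EC and 4 against the midpoint, where the fit without it gave 5, 3, 4 and 3. Counts of all genes called, in the same order, were 3274, 2801, 5434 and 1222 with the block and 3366, 2983, 5586 and 1339 without it. Over all genes, 1339 were called against the midpoint and 751 without HSPC replicate 3. Median centring moved the share of calls that were higher in HSPC from 51.8% to 41.3% against EC and from 57.7% to 45.2% against the midpoint. With background at the 99th percentile (5.70) 5 differences of the 8 genes had a lower group at background, S100a16 in HC included, against 3 at the 95th, all S100b.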
